A study of Rattus norvegicus with 60 samples.

Results

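The comparison described here sets RNA from rat hippocampal CA1 tissue of 8 threat libraries against 6 place libraries, both labelled 1 h, and covers the 13153 of 22865 genes that reached 1 FPKM in at least 5 of the 34 RNA libraries of the series. FPKM are fragment counts scaled to gene length and library size, as the authors deposited them. The 14 libraries are 14 of the 60 samples in the series, which also holds 9 naive, 5 place 24 h and 6 threat 24 h RNA libraries and methylated-DNA libraries that were not used here. All animals were Sprague-Dawley rats of 90 to 120 d. No transgene or drug is named for any group, and the naive libraries carry no time. The labels mention training in contextual threat recognition but not what a place or a threat animal went through. Nothing in them says that replicates were separate animals, so p-values measure the spread between these libraries, which may be technical.

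CA1 is the output field of the hippocampal circuit, whose pyramidal neurons take part in memory for contexts and places. When neurons are strongly activated, immediate early genes such as Fos, Fosb and the Egr family are transcribed first. They encode transcription factors that act on later effector genes such as Bdnf and Homer1. Stress hormones act on the same tissue through the glucocorticoid receptor, with Sgk1, Fkbp5, Per1 and Pdk4 among the known responding genes. DNA methylation, written by DNA methyltransferases and oxidized by TET enzymes, has been studied as a substrate of contextual memory. A microdissected CA1 block can also carry neighbouring CA2, CA3 or dentate cells, choroid plexus from the adjoining ventricle, and blood.

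Libraries that stood apart are described first, because several results rest on them. Relative depth ran from 0.838 to 1.12 of the median library in the 14 libraries, and 12580 to 12947 genes reached 1 FPKM. Threat libraries 4 and 7 were far above the rest in choroid plexus transcripts. Ttr, the thyroid hormone carrier that choroid epithelium secretes into cerebrospinal fluid, stood at 6226 and 3700 FPKM in these libraries and at no more than 255.1 FPKM in the other 32. All 21 choroid plexus markers found in the data had their 2 highest values of the 34 libraries in threat 4 and threat 7. So did 1 of 6 ependymal and 3 of 10 meninges and fibroblast markers found, and no marker of the other lists. The 2 libraries kept CA1 markers at mean log2(FPKM + 1) levels of 4.44 and 4.27, against 3.88 to 4.66 in the other libraries at 1 h.

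Place library 3 was apart in a second way. Its 12 CA2 and CA3 markers averaged 4.40 log2, followed by 4.01 in threat 3 and 3.82 in threat 6, while the other 11 libraries lay between 3.30 and 3.51. The same libraries were lowest for the 8 CA1 pyramidal cell markers, at 3.88 in place 3, 3.91 in threat 3 and 3.96 in threat 6, with the other 11 at 4.27 or above. Threat 3 was also highest for dentate granule cell markers at 4.36 log2, next to 3.77 in place 6. Prss23, a protease listed among CA2 and CA3 markers, reached 27.12 FPKM in place 3 and at most 9.22 FPKM elsewhere at 1 h. The members of this list did not all move together. Cpne4 and Grik4 were also highest in place 3, at 59.7 and 22.4 FPKM. Cdh24 was lowest of the libraries at 1 h there, at 2.79 FPKM, and Coch lowest of the place group, at 0.257 FPKM. Rgs14 was at 21.2 and 19.7 FPKM in threat 3 and 6, below every place library. Wfs1, an endoplasmic reticulum protein that marks dorsal CA1, was at 70.8 FPKM in place 3, 70.7 in threat 3 and 49.3 in threat 6, and at 93.8 FPKM or above in the others. Of the 9 CA1 markers found, the 8 tested were detected in every library, and Spink8 was at 0 FPKM in 13 of the 34.

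**Figure D1:**
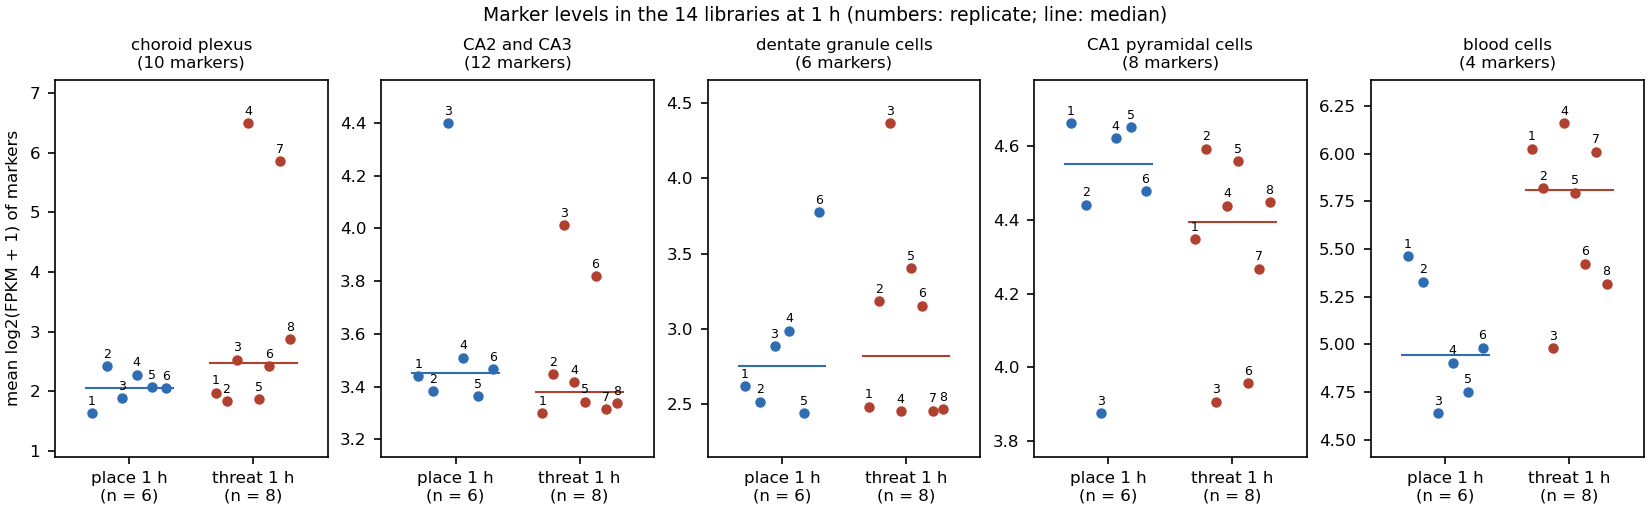
Mean log2(FPKM + 1) of 5 marker lists in each of the 14 libraries at 1 h, one point per library with its replicate number, and the group median as a line. Threat 4 and 7 stand at 6.50 and 5.86 for choroid plexus against 2.87 or less in the other libraries, place 3 stands highest for CA2 and CA3 at 4.40, and the place group lies low for blood.

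No gene was called different between threat and place at 1 h. In limma, with all 34 libraries in 1 fit, 0 of 13153 genes had a Benjamini-Hochberg adjusted p under 0.05 (percent called: 0), and the lowest adjusted p was 0.933. An exact 2-sided permutation test of each gene over the 14 libraries, whose smallest possible p is 0.000333, also called 0 genes after adjustment (lowest adjusted p = 0.73). At an unadjusted p under 0.05, limma gave 560 genes, 4.26% of those tested, and the exact permutation test gave 656 (4.99%). Of the 560 genes, 465 (3.54% of genes tested) were higher and 95 (0.722%) lower in threat. This split depended on scaling. The share that was higher was 83% in the deposited FPKM, 65.7% after median-ratio scaling (329 higher, 172 lower) and 50.9% after quantile normalization (236 and 228), with 0 genes called in each. The count was 372 without threat 4, 304 (2.31%) without threat 4 and 7, and 432 (3.28%) when place 3 was left out as well, of which 299 (2.27%) were higher and 133 (1.01%) lower.

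The data set close bounds on most genes. The median standard error of a threat minus place difference was 0.0674 log2, and the median absolute difference was 0.0437 log2. For 12874 genes (97.9%) the 95% interval lay within a fold of 1.5 in either direction on the log2(FPKM + 1) scale. A fold past 1.5 was seen for 26 genes (0.198%), all higher in threat. They included 9 choroid plexus markers, led by Ttr at 2.70 ± 1.25 (SE), and the hemoglobins. The scale shrinks differences of genes near or below 1 FPKM.

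**Figure D2:**
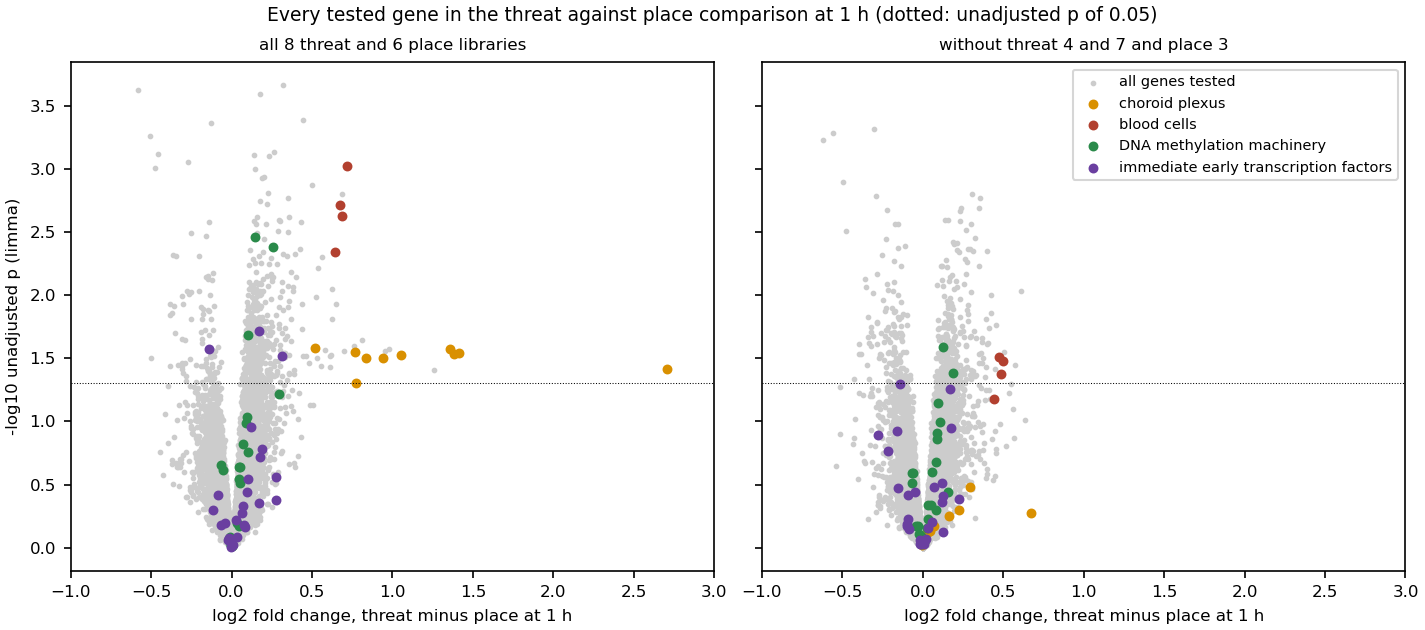
Log2 difference between threat and place at 1 h (horizontal) against -log10 of the unadjusted limma p (vertical) for each of the 13153 genes, with all libraries on the left and without threat 4 and 7 and place 3 on the right; colours mark 4 gene lists. Choroid plexus markers form the right-hand arm on the left panel, from 0.52 to 2.70 log2, and lie nearer 0 on the right panel, where their median is 0.061.

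Choroid plexus markers were highest in the 2 libraries named above. Only 10 of the 21 markers found reached the filter, and these 10 were all at an unadjusted p under 0.05 and higher in threat, with a median of 1.00 log2 against 0.016 over all genes. Markers of this list could pass the filter partly because 2 threat libraries were high, so the count is not evidence of a group difference. Without threat 4 and 7 the median was 0.099 log2 and 0 of 10 had an unadjusted p under 0.05. Ttr was then still 0.87 log2 higher, with 164 FPKM in threat 8 and at most 60.2 FPKM in place libraries. The mean level of the list was 2.87 log2 in threat 8 and 2.53 in threat 3, above the highest place level of 2.42. Threat 1, 2, 5 and 6 did not exceed that place level. Folr1, the folate carrier of choroid epithelium, stood at 46.43 and 28.88 FPKM in threat 4 and 7. Its values in the other 6 threat libraries ended at 1.73 FPKM and in the place libraries at 0.779 FPKM. In sum over the 10 markers, threat libraries ran from 53.9 to 6998 FPKM (median 121), place libraries from 46.5 to 124 (median 76.7) and naive libraries from 53.004 to 339 (median 62.9).

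Hemoglobin transcripts, which are typical of red blood cells, were higher in threat than place libraries, with and without threat 4 and 7. None passed the adjusted threshold, and their source in this tissue was not tested. Hbb, a beta globin (chromosome 1, 175134674 to 175136088 in rn5), ran from 55.4 to 124 FPKM with a median of 95.7 in threat libraries and from 44.4 to 71.8 with a median of 51.7 in place libraries. Threat 3, 6 and 8 overlapped the place range and the other 5 threat libraries lay above it. The difference was 0.68 ± 0.20 log2 (SE; limma adjusted p = 1.00; exact permutation p = 0.00966) and 0.54 without threat 4 and 7. The 4 tested globin genes of the blood marker list were higher by 0.64 to 0.72 log2, and their median was 0.56 without threat 4 and 7 and 0.48 without those and place 3. A globin row outside the list, HBB (ENSRNOG00000048955), differed by 0.69 log2. Globin paralogs can share reads, so these rows are close to 1 measurement. The place 1 h group was the low one. Summed FPKM of the 4 listed globin genes had medians of 166 in place 1 h and 303 in threat 1 h, beside 272 in naive, 277 in place 24 h and 323 in threat 24 h libraries. Less blood and less globin RNA per cell cannot be told apart in bulk tissue. Of the other 4 blood markers found, the erythroid transporter Slc4a1 and the neutrophil genes S100a8 and S100a9 were at most at 0.4815 FPKM in any of the 34 libraries. Alas2, the erythroid enzyme of heme synthesis, had a median of 0.681 FPKM over the 34 libraries and was highest in threat 4, at 1.262 FPKM, with 0.811 in threat 7 and at most 1.13 in the others.

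CA2 and CA3 markers had a median difference of -0.10 log2, with 0 of 12 at an unadjusted p under 0.05, beside 4.26% of all genes. Their median turned to 0.096 without threat 4 and 7 and place 3. In that reduced set 2 of the 12 were higher at that level, beside 2.27% of all genes. CA1 markers had a median of -0.17 log2 (2 of 8 above 0, beside 8029 of all 13153 genes) and -0.27 in the reduced set. Dentate markers had a median of 0.12 log2, which was 0.37 in the reduced set. The reduced set leaves out place 3 but keeps threat 3 and 6, the next highest in CA2 and CA3 markers and also low in CA1 markers. Its medians therefore depend on which libraries were left out, and its values for other genes share this limit. Rgs14, a CA2 signalling scaffold, ran from 19.0 to 27.7 FPKM (median 22.1) in threat and from 26.4 to 40.3 (median 29.1) in place libraries, with an overlap of 2 threat libraries. Its difference was -0.40 ± 0.20 log2 (limma adjusted p = 1.00; exact permutation p = 0.004). Below 0 were 12 of 13 oligodendrocyte markers, beside 5124 of all 13153 genes. The median of these markers was -0.11 log2, and 0 of them had an unadjusted p under 0.05. Astrocyte and microglia lists had medians of 0.0050 and -0.0017 log2 with 0 of 10 members each at that level. A fit with the mean levels of the choroid plexus, CA2 and CA3, and blood marker lists as covariates called 0 genes and gave 519 at an unadjusted p under 0.05 (402 higher, 117 lower). Its values are given below only for genes whose difference it turned or moved, so they do not show how it acted on the rest. The blood marker level itself differed, with medians of 4.94 log2 in place and 5.81 in threat. This fit can therefore also take away part of a group difference.

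The lowest p of any gene belonged to Pmaip1, which encodes Noxa, a BH3-only protein that promotes apoptosis. It ran from 2.64 to 3.83 FPKM (median 3.46) in threat, from 1.91 to 3.02 (median 2.50) in place and from 2.18 to 2.97 (median 2.45) in naive libraries. Threat 3 and 6 lay inside the place range and the other 6 threat libraries above it. The difference was 0.32 ± 0.077 log2 (limma adjusted p = 0.933; exact permutation p = 0.00366), and it was 0.31 without threat 4 and 7 and place 3. Cdkn1a, which encodes the cyclin-dependent kinase inhibitor p21 (chromosome 20, 8592437 to 8602879), came after Pmaip1 and Atpaf2 by p among genes higher in threat. It ran from 2.41 to 5.69 FPKM (median 3.68) in threat, from 1.96 to 3.11 (median 2.50) in place and from 1.49 to 2.20 (median 1.77) in naive libraries. The highest Cdkn1a levels were 5.69 and 5.02 FPKM in threat 7 and 4, the libraries high in choroid plexus transcripts. Its difference was 0.45 ± 0.11 log2 (adjusted p = 0.933 in limma; exact permutation p = 0.0186), 0.30 without those libraries and place 3, and 0.27 with marker covariates.

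Other leading genes higher in threat differed by small steps. Vps54, a subunit of the GARP tethering complex that returns endosomal vesicles to the Golgi, ran from 4.63 to 5.23 FPKM in threat and from 3.93 to 4.51 in place libraries. These ranges did not overlap, and the difference was 0.14 ± 0.037 log2 (limma adjusted p = 0.933; exact permutation p = 0.000333, the smallest possible). Atpaf2, an assembly factor of mitochondrial ATP synthase, had medians of 7.84 and 6.56 FPKM and a difference of 0.17 log2. The naive median of Atpaf2 was 7.63 FPKM, so its place libraries were the low ones. Bbs1, a subunit of the BBSome that carries cargo to cilia, was 0.15 log2 higher. Rrp1b (0.27), Gramd4 (0.23), Zbtb46 (0.20) and Bckdhb (0.19 log2), the last a subunit of the branched-chain keto acid dehydrogenase, completed the 10 named genes with Hbb-b1 (0.72).

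Among genes lower in threat, the lowest p with a symbol belonged to C1qbp. C1qbp, a mitochondrial matrix protein (chromosome 10, 57359094 to 57363789), ran from 28.2 to 33.9 FPKM (median 30.6) in threat and from 33.0 to 34.7 (median 33.4) in place libraries. Only threat 8 lay inside the place range. The difference was -0.13 ± 0.033 log2 (limma adjusted p = 0.933; exact permutation p = 0.00366), -0.11 without threat 4 and 7 and place 3, and -0.079 with marker covariates. Mrpl47, a protein of the mitochondrial ribosome, was at -0.16 log2, and CHCHD4, an import factor of the intermembrane space, at -0.25, although the deposited row of CHCHD4 lies on another chromosome than in RefSeq and is uncertain. Abhd12, a serine hydrolase that breaks down lysophosphatidylserine (chromosome 3, 152989212 to 153051233), had ranges that did not overlap, 55.7 to 64.0 FPKM in threat and 64.3 to 69.9 in place. Naive libraries ran from 56.7 to 69.0 FPKM (median 63.8) and reached into both groups. The difference of Abhd12 was -0.14 ± 0.042 log2 (limma adjusted p = 1.00; exact permutation p = 0.000333). Serf1 (-0.27), Glt25d2 (-0.36), Gm20721 (-0.34), Ccdc177 (-0.20), Fam174a (-0.12) and Tmem14a (-0.15 log2) were the remaining named genes. Across all genes, 11 (0.0836%) had ranges that did not overlap, 7 higher (0.0532%) and 4 lower (0.0304%) in threat. Some such genes are expected among 13153 without any group difference, and the exact permutation test called 0 genes after adjustment.

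**Figure D3:**
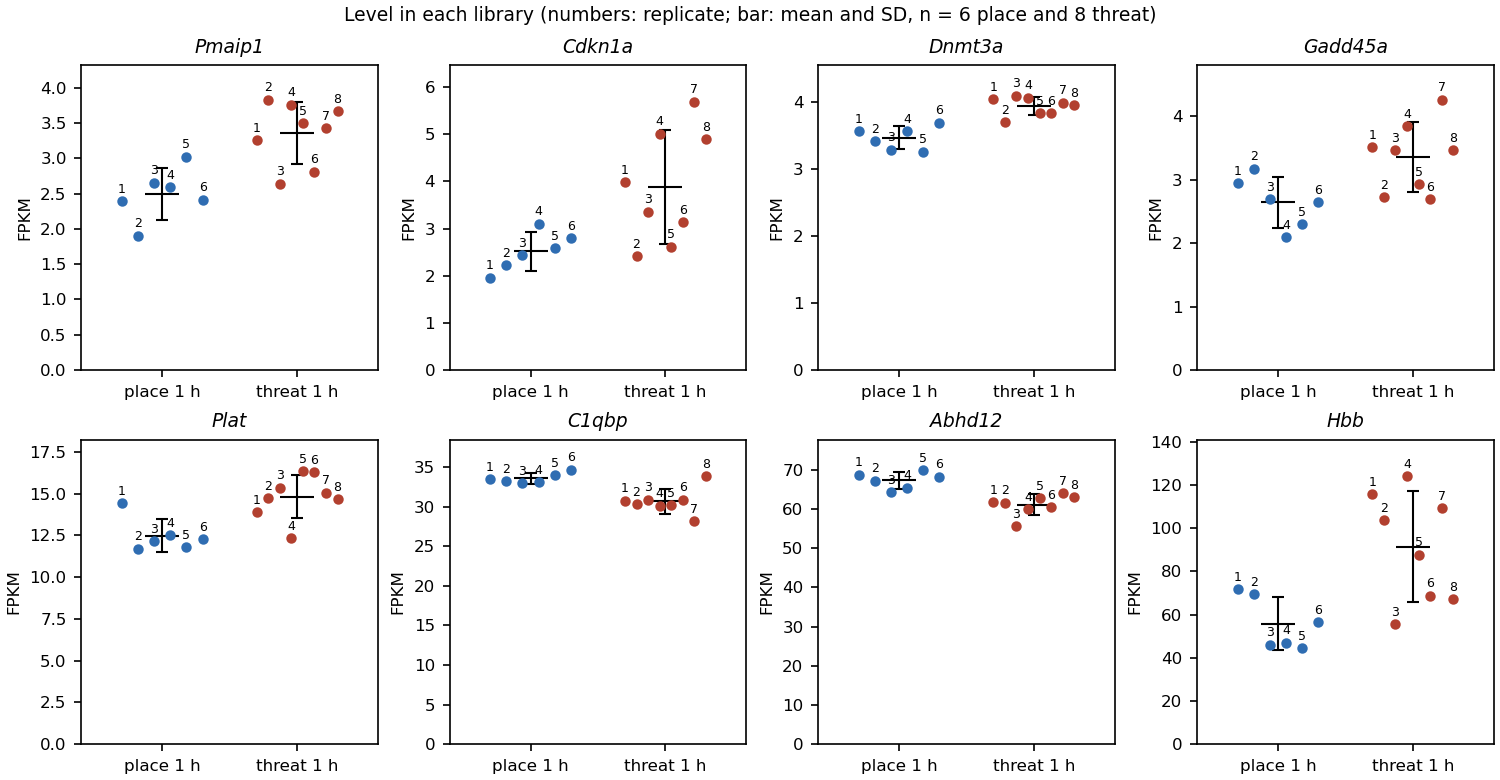
FPKM of 8 genes in each library at 1 h, with replicate numbers and the mean and SD of 6 place and 8 threat libraries; each axis starts at 0. Dnmt3a and Abhd12 show no overlap between groups, while Pmaip1, Cdkn1a, Gadd45a, Plat (tissue plasminogen activator), C1qbp and Hbb overlap in at least 1 threat library.

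Among the 14 lowest p-values were 4 genes without a symbol, all lower in threat by 0.46 to 0.58 log2. These were named after their values were seen. Of the 4, 3 lie within 130.3 kb on chromosome 14 of rn5 (46699209 to 46829504) and 1 on chromosome 6. ENSRNOG00000047693, a model of 384 bp at the end of that stretch, ran from 5.24 to 7.94 FPKM in threat, 8.18 to 13.6 in place and 5.58 to 11.6 in naive libraries. Its difference was -0.58 ± 0.14 log2 (limma adjusted p = 0.933), and -0.62 without threat 4 and 7 and place 3. The deposited table gives the same description to a chromosome 14 model and the chromosome 6 model, so reads may be shared between copies and the 4 values are uncertain as separate genes.

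In the DNA methylation machinery, 3 of 24 genes tested (31 were listed) were higher in threat at an unadjusted p under 0.05, and 0 were lower, where 3.54% of all genes were higher at that level. No member passed the adjusted threshold. The median over the 24 was 0.045 log2, beside 0.016 over all genes. Dnmt3a, the de novo methyltransferase (chromosome 6, 38044960 to 38149613), ran from 3.69 to 4.09 FPKM (median 3.97) in threat and from 3.26 to 3.69 (median 3.49) in place libraries. The ranges did not overlap, although the highest place value, 3.688 FPKM, lay close to the lowest threat value, 3.693. Naive libraries ran from 3.24 to 4.37 FPKM (median 3.85) and covered both groups. The difference was 0.15 ± 0.046 log2 (limma adjusted p = 1.00; exact permutation p = 0.000333, the smallest possible), with 0.13 to 0.16 when any 1 library was left out and 0.13 without threat 4 and 7 and place 3. Dnmt3a differed by 0.021 log2 at 24 h.

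Gadd45a, a stress-inducible protein linked to DNA demethylation, ran from 2.69 to 4.26 FPKM (median 3.47) in threat and from 2.10 to 3.17 (median 2.67) in place libraries. Threat 2, 5 and 6 overlapped the place range, and the difference was 0.26 ± 0.084 log2 (limma adjusted p = 1.00; exact permutation p = 0.0183), and 0.16 with marker covariates. Ogt, the O-GlcNAc transferase that binds TET proteins, ran from 27.2 to 29.7 FPKM in threat and 25.9 to 27.4 in place libraries, overlapping in threat 1 alone, with a difference of 0.10 ± 0.042 log2.

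The dioxygenases that oxidize 5-methylcytosine, Tet2 and Tet3, differed by 0.090 and 0.095 log2, and the maintenance methyltransferase Dnmt1 by 0.045 (its sign turned when threat 3, 4 and 7 and place 3 were left out). Among base excision enzymes Tdg was at 0.0029, Smug1 at -0.0044 and Apex1 at -0.063 log2, and Tdg turned negative under median-ratio scaling and quantile normalization. The count of 3 higher members was 2 without threat 4 and 7, with or without place 3, and 0 when threat 3 was left out too. It ran from 3 to 5, the highest without threat 6, when any 1 library was left out.

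**Figure D4:**
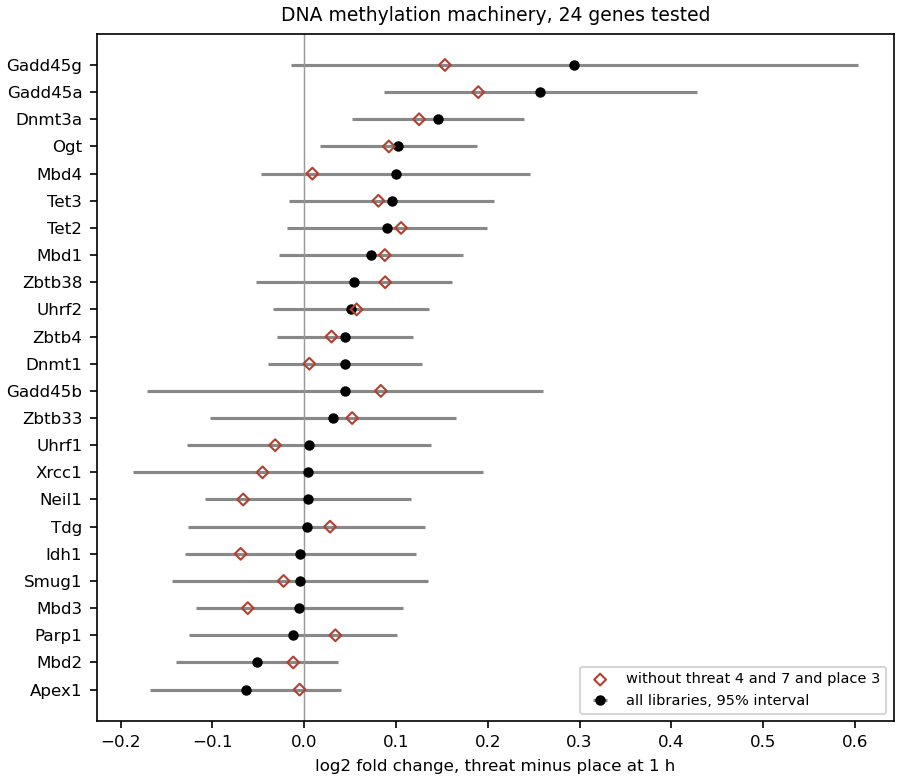
Threat minus place difference at 1 h in log2(FPKM + 1) for the 24 genes of the DNA methylation machinery, as points with 95% intervals, and open diamonds for the value without threat 4 and 7 and place 3. Intervals of Gadd45a, Dnmt3a and Ogt lie above 0, and the other 21 include 0.

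RefSeq promoter windows of GRCr8, running from 250 bases before to 50 bases after the annotated start, were found for 37 of 43 genes looked up. They were searched on both strands for a cAMP response element (TGACGTCA), an AP-1 site (TGANTCA), the CArG box bound by SRF, an EGR site (GCGNGGGCG), a glucocorticoid response element and an E-box (CACGTG). Over 33469 promoters these were present in 1.83%, 7.33%, 1.64%, 4.98%, 0.44% and 6.42%. Of the 37 windows found, 1, 0, 3, 6, 0 and 6 held them, in the same order. The windows of Pmaip1, Cdkn1a and Vps54, among the leading genes higher in threat, held none of the 6 motifs. A match says only that the letters are there. Shown first is the window of Dnmt3a (chr6:32598352-32598651, plus strand), whose groups did not overlap. Capitals mark an E-box 80 bases before its start. Next is C1qbp (chr10:56203136-56203435, minus strand), which led the genes with a symbol that were lower in threat. Capitals there mark an EGR site 83 bases and an E-box 16 bases before the start. Egr2 (chr20:21054392-21054691, minus strand), an immediate early gene, is shown for its CArG box 83 bases before the start. Each window is written 5′ to 3′ along its gene.
Dnmt3a: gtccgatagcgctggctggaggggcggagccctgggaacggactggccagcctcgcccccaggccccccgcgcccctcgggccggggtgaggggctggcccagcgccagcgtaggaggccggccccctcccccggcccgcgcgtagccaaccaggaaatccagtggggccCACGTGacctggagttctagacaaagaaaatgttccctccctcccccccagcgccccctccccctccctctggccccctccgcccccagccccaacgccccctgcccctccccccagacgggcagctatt
C1qbp: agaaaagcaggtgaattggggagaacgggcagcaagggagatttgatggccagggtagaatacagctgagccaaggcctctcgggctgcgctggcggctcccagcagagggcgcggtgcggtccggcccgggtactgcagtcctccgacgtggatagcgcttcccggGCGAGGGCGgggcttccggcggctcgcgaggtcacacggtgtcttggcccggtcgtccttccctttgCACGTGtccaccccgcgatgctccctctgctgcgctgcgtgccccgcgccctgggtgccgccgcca
Egr2: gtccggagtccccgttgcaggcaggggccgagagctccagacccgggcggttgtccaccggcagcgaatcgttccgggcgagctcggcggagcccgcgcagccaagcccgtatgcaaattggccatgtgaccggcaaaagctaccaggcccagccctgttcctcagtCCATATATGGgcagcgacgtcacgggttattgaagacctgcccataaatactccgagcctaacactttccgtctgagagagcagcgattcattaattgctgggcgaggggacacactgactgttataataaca
The E-box letters are in the windows of Dnmt3a and C1qbp, and none of the 6 motifs is in all 3 windows.

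Genes known to respond to experience or stress were compared between threat and place, with each group's difference from the 9 naive libraries beside it. Both of those differences use the same naive libraries. The naive libraries also varied most among themselves, with a median SD per gene of 0.132 log2 against 0.111 in threat and 0.123 in place at 1 h. Of 21 response genes, 12 rose in threat against naive and 6 in place against naive at an adjusted p under 0.05 in limma, and 0 fell in either. These contrasts called 0.928% and 0.129% of all genes in either direction. The response genes were chosen with such results known. Between threat and place, 0 of the 21 were called, 16 were above 0, and 3 were higher at an unadjusted p under 0.05 (Cdkn1a, Pmaip1 and Fosb). Over all genes, 8029 of 13153 were above 0 and 3.54% were higher at that level, a lean that depended on scaling. A gene called in one group and not in the other is not shown to differ between them.

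**Figure D5:**
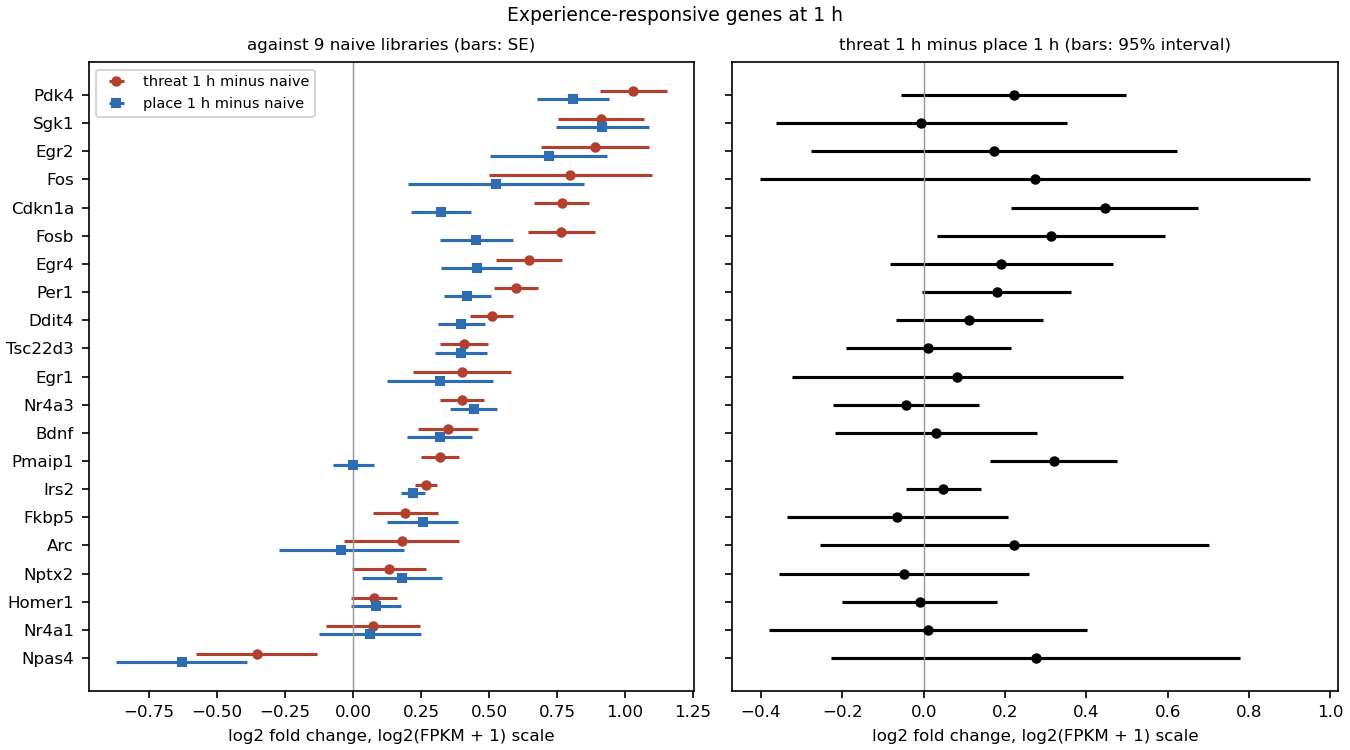
Log2 differences of 21 response genes, on the left threat (circles) and place (squares) at 1 h minus naive with SE, on the right threat minus place with 95% intervals. Threat and place values lie close together for Sgk1, Nr4a3, Tsc22d3 and Bdnf, and the right-hand intervals exclude 0 for Cdkn1a, Pmaip1 and Fosb.

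Immediate early transcription factors showed 2 of 26 higher and 1 lower at an unadjusted p under 0.05, where 3.54% of all genes were higher and 0.722% lower. Fosb, an AP-1 subunit, ran from 1.43 to 4.61 FPKM (median 3.21) in threat, 1.43 to 2.75 (median 2.26) in place and 0.973 to 1.77 (median 1.31) in naive libraries. Threat 1, 2, 4, 7 and 8 lay above the place range and the other 3 inside it. Its threat minus place difference was 0.31 ± 0.14 log2 (limma adjusted p = 1.00; exact permutation p = 0.113), 0.12 without threat 4 and 7 and place 3, and 0.047 with marker covariates. Crem, a CREB-family factor, differed by 0.17 log2, by 0.070 in the reduced set and by 0.039 with marker covariates. Myc was at -0.14 log2 in both. Without threat 4 and 7 the list had 0 members at an unadjusted p under 0.05 in either direction, beside 2.31% of all genes.

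Fos ran from 3.92 to 11.7 FPKM (median 6.48) in threat and from 4.42 to 6.92 (median 5.53) in place libraries, with a difference of 0.27 ± 0.33 log2. Threat 1, 4, 7 and 8 lay above the place range and threat 3 below it. Its 95% interval, -0.40 to 0.95 log2 reaches well to both sides of 0. Egr2 ran from 0.852 to 4.45 FPKM (median 1.86) in threat and from 0.817 to 2.82 (median 1.96) in place libraries. Its difference of 0.17 ± 0.22 log2 turned to -0.084 without threat 4 and 7 and place 3. Egr1 (0.082) and Egr4 (0.19) also turned, to -0.095 and -0.012 log2. In each of these 3 genes place 3 was the lowest place library. With marker covariates Fos turned to -0.098, Egr1 to -0.15 and Egr2 to -0.15 log2. Against naive, Egr2 was 0.89 log2 higher in threat and 0.72 in place, and Egr4 0.65 and 0.46.

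Glucocorticoid-responsive genes had a median difference of -0.0094 log2 between threat and place. At an unadjusted p under 0.05 was 1 of 29 (Cdkn1a), close to the 4.26% of all genes. Against naive the medians of the list were 0.27 log2 in threat and 0.27 in place. Sgk1, a kinase that regulates ion channels, ran from 22.5 to 63.3 FPKM (median 35.7) in threat, 29.9 to 44.2 (median 36.9) in place and 14.4 to 25.3 (median 17.5) in naive libraries. Its threat minus place difference was -0.0058 log2 with a 95% interval of -0.36 to 0.35, and 0.051 with marker covariates. Pdk4, which restrains pyruvate dehydrogenase, ran from 2.66 to 7.12 FPKM (median 3.97) in threat, 2.21 to 4.21 (median 3.69) in place and 1.14 to 1.97 (median 1.48) in naive libraries. Threat minus place was 0.22 ± 0.14 log2. The clock gene Per1 rose by 0.60 log2 in threat and by 0.42 in place against naive, and differed by 0.18 ± 0.090 between them (limma adjusted p = 1.00). Ddit4, an inhibitor of mTORC1, rose by 0.51 and 0.40, with 0.11 ± 0.089 between groups. The row of Tsc22d3, a glucocorticoid-induced leucine zipper, lies on another chromosome than in RefSeq and is uncertain. Fkbp5, a co-chaperone of the receptor, had medians of 11.5 FPKM in both groups.

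Of 33 activity-regulated effector genes, 3 were higher at an unadjusted p under 0.05 and 0 lower, where 3.54% of all genes were higher and 0.722% lower. Plat, the tissue plasminogen activator (chromosome 16, 73730256 to 73754851), ran from 12.3 to 16.4 FPKM (median 14.9) in threat, 11.7 to 14.4 (median 12.2) in place and 7.72 to 11.8 (median 9.95) in naive libraries. Place 1 was the one place library above 12.53 FPKM. The difference was 0.23 ± 0.078 log2 (limma adjusted p = 1.00; exact permutation p = 0.00533), and 0.26 without threat 4 and 7 and place 3. Plat rose against naive in both groups, by 0.58 log2 in threat and 0.35 in place. Gem, a GTPase that restrains voltage-gated calcium channels, ran from 0.981 to 1.72 FPKM in threat, 0.861 to 1.22 in place and 1.20 to 2.21 in naive libraries. Threat 3 alone lay inside the place range, and the difference was 0.25 ± 0.086 log2. Gem fell in place against naive by 0.42 log2 (limma adjusted p = 0.0361), and its threat value was -0.18 (adjusted p = 0.252). Coq10b differed by 0.18 log2. Bdnf (0.030), Homer1 (-0.010), Nptx2 (-0.049) and Arc (0.22 ± 0.24) had intervals that include 0, and Arc was at -0.045 log2 with marker covariates. Place 3 held the highest Bdnf value of the 14 libraries, 6.605 FPKM, and Bdnf differed by 0.17 log2 without it and threat 4 and 7.

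Lists of synaptic and other genes gave few or no members at an unadjusted p under 0.05, where 4.26% of all genes were. In lists of this size a count of 0 lies close to that share. There were 0 of 17 ionotropic glutamate receptor genes, 0 of 18 GABA receptor and synthesis genes, 0 of 27 plasticity kinases and postsynaptic scaffolds, 0 of 21 clock genes and 0 of 29 heat shock and unfolded protein response genes. Grin1, the obligatory NMDA receptor subunit, had medians of 79.9 FPKM in threat and 83.7 in place libraries, a difference of -0.086 ± 0.045 log2. The 95% interval of Grin1 was -0.18 to 0.0051. Gabra5, an extrasynaptic GABA receptor subunit, was at -0.22 ± 0.11 log2, and its highest value, 58.6 FPKM, was in place 3. Without place 3 and threat 4 and 7 the Gabra5 difference was -0.024. Of 26 insulin and mTOR signalling genes, 1 was higher at that level, where 3.54% of all genes were. It was Deptor, an inhibitor of mTOR, with medians of 2.53 FPKM in threat and 2.07 in place, and a difference of 0.33 ± 0.14 log2 (limma adjusted p = 1.00).

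At 24 h threat against place also called 0 of 13153 genes (lowest adjusted p = 0.9998), with 381 (2.9%) at an unadjusted p under 0.05, of which 153 (1.16%) were higher and 228 (1.73%) lower. Immediate early transcription factors had 2 of 26 members among the 153 and 0 among the 228. Glucocorticoid-responsive genes had 3 of 29 among the 228, with a list median of -0.11 log2, and oligodendrocyte markers 3 of 13, with a median of -0.26, and neither had a member among the 153. The interaction of training and time called 0 (lowest adjusted p = 0.9997), with 360 (2.74%). The groups at the 2 times share no libraries. At both times and in the same direction, 19 genes had an unadjusted p under 0.05, and 3 genes had it in opposite directions. The 19 are 3.39% of the 560 genes at 1 h, beside 1.16% of all genes higher and 1.73% lower at 24 h. They are 4.99% of the 381 at 24 h, beside 3.54% of all genes higher and 0.722% lower at 1 h. The overlap was not tested. Across genes, which are not independent, the folds at 1 h and 24 h had r = 0.075, or 0.22 without threat 4 and 7 and place 3 at 1 h. Pmaip1 differed by 0.024 log2 at 24 h and Cdkn1a by -0.18. The 1 h minus 24 h difference of Cdkn1a was not called in limma (adjusted p = 0.9997). At 24 h the globin genes had a median difference of 0.016 log2 and choroid plexus markers one of -0.31.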

How the data were processed

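PolyA+ RNA of CA1 tissue was measured in 34 libraries, as directional libraries of intact RNA, per the labels' protocols. The authors deposited FPKM per gene, and no counts were used here, so only relative depth is known. Tools listed in the submitters' processing notes, with no roles, are Bowtie, edgeR, DESeq2 and TopHat 1.4.0, with builds rn5 and mm10. Gene positions fit rat rn5 although the deposited table's title names a mouse build. Of 379 named genes and list members tested, 5 rows lie on another chromosome than the same symbol in RefSeq GRCr8.

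Genes with 1 FPKM or more in at least 5 libraries were tested. Values were log2(FPKM + 1), so folds of low genes are understated. All 34 libraries entered 1 limma fit (3.58.1, R 4.3.3) with trend, 5 group means and 29 residual degrees of freedom, adjusted by Benjamini-Hochberg over 13153 genes at 0.05. Single genes were also tested by exact 2-sided permutation over the 14 libraries. Named genes were the 10 lowest p in each direction with a symbol, up to 4 lowest p of each list described, 26 response genes (25 tested), and the 2 highest-mean members of the choroid plexus, CA2 and CA3, CA1 and blood lists. Genes outside this rule were named after their values were seen. The members and lists were chosen with earlier results of these data known. The 24 lists include 14 marker lists, of which those of interneurons, endothelial and mural cells, ependymal cells, oligodendrocyte precursors, meninges and thalamus had medians of 0.036, 0.048, 0.27, -0.035, 0.062 and 0.045 log2 in threat minus place at 1 h. The ependymal median rests on 3 genes. Without threat 4 and 7 it was 0.044, and that of meninges 0.023. Alternatives were other pseudocounts, filters, scalings and fits, marker covariates, a replicate block and libraries left out. The code was tested on simulated data. Methylated-DNA libraries were not analysed here, and some genes and gene groups are not reported here.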

Additional observations from a re-analysis of the deposited data

Results flagged for a closer look

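In 166 sets of threat or place libraries at 1 h, each the values of 1 gene or marker list, 24 had a highest or lowest library set apart by Dixon's gap, where chance gives about 1 set in 20. No explanation was tested.

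Place 3 was set apart most often. It was highest for Bdnf (6.605 FPKM, next 4.32), Nr4a3 (14.9, next 10.51), Prss23 (27.12, next 7.857) and Gabra5 (58.61) and for CA2 and CA3 markers (4.399 mean log2, next 3.51). It was lowest for markers of CA1 (3.875), endothelial and mural cells (2.565), microglia (3.246) and thalamus (1.579).

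Threat 3 was highest for Prkcd (11.04 FPKM), Tdg (11.28 FPKM), Plk5 (7.88 FPKM) and thalamus markers (2.482 mean log2), and lowest for Abhd12 (55.69 FPKM) and Gem (0.9811 FPKM). Zic1, a factor listed among thalamus markers, was at 17.41 FPKM in threat 3 and at 3.908 or below in the other libraries at 1 h. Place 2 was lowest of its group for Zic1, at 1.323 FPKM. Beyond Prkcd and Zic1, the tested thalamus markers were not highest in threat 3. Lef1 (1.924 FPKM) and Tnnt1 (0.302 FPKM) were lowest of the libraries at 1 h there. Tcf7l2 (2.74 FPKM), Slc17a6 (7.12 FPKM) and Ntng1 (5.63 FPKM) lay inside the range of the others.

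In single genes, threat 8 was lowest for Serf1 (9.614 FPKM), threat 6 highest for Glt25d2 (4.156) and threat 5 lowest for Irs2 (8.324). Place 6 was highest for Rrp1b (2.4 FPKM) and lowest for Gem (0.8606), place 5 lowest for Mrpl47 (3.768) and place 1 highest for Plat (14.42). Threat 4 and 7 were high together in choroid plexus markers, which a gap of 1 library does not show.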

How the results depend on the processing

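Counts of called genes were 0 for threat against place at 1 h, at 24 h and for the interaction under every alternative run, so they show nothing about stability, and at an unadjusted p under 0.05 the 1 h count ran from 256 to 964. It was 267 of 8857 genes with a filter of 5 FPKM and 964 of 19232 with no filter, so these counts have different totals. Without threat 3, 4 and 7 and place 3, a set chosen after seeing the data, it was 256 of 13153. Replicate numbers showed no clear pairing: same-numbered libraries had correlations of -0.15 to 0.59, and 1 of 6 correlated best with its own number. That 1 was place 3 with threat 3, the libraries highest in CA2 and CA3 markers. The correlations run over all genes, tissue differences included, so they cannot exclude a pairing or a shared batch. The replicate block gave 0 called and 541 at an unadjusted p under 0.05. Read depth is not known, which limits statements on low genes.

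Of 69 genes, 49 kept their direction under every alternative run, and 20 reversed in 68 of 1976 values. The cause was not tested. Leaving out 1 library gave ranges of -0.12 to 0.092 log2 for Sgk1, -0.040 to 0.014 for Homer1, -0.087 to 0.049 for Nr4a3, -0.027 to 0.12 for Bdnf, -0.019 to 0.16 for Egr1, -0.12 to 0.044 for Fkbp5, -0.41 to 0.020 for Prss23, -0.040 to 0.023 for Tdg and -0.039 to 0.036 for Smug1. Without threat 4 and 7 Sgk1 was 0.092 and Nptx2 0.00216. Without place 3 as well, Sgk1 was 0.097, Fkbp5 0.10, Nr4a3 0.033, Prss23 0.027, Nptx2 0.00845, Egr1 -0.095, Egr2 -0.084, Egr4 -0.012 and Enpp2 -0.0081. Without threat 3 too, Dnmt1 was -0.0047, Egr1 -0.00383, Enpp2 -0.028, Tdg -0.030, Zic1 -0.018, Nr4a3 0.036, Sgk1 0.064 and Fkbp5 0.044. With marker covariates, whose use is circular for list members Hbb (-0.0033), Hba-a2 (-0.069) and Enpp2 (-0.082), Fos was -0.098, Egr1 -0.15, Egr2 -0.15, Arc -0.045, Irs2 -0.0034, Smug1 0.00425, Sgk1 0.051 and Fkbp5 0.049. The replicate block gave Egr1 -0.058, Egr2 -0.010, Smug1 0.0037 and Sgk1 0.036. Array weights gave Nr4a3 0.00997, Homer1 0.00664 and Tdg -0.00666, median-ratio scaling Tdg -0.0114, and quantile normalization Bdnf -0.0065 and Tdg -0.0159.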
